A study of Mus musculus with 9 samples.

Results

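miR-126 was followed through 9 small-RNA libraries of mouse liver by the 4 rows of the deposited miRNA table that carry its name: mmu-miR-126a-3p, mmu-miR-126a-5p, mmu-miR-126b-5p and mmu-miR-126b-3p, of 946 rows in all. The species prefix is left out from here on. Members were chosen by name, with earlier results of these data known. The livers, in 3 groups of 3 libraries, were those of C57 BL6 wild-type mice, 8 weeks old. Control mice received saline. APAP mice received 500 mg/kg acetaminophen (APAP) by intraperitoneal injection, and dmPGE2+APAP mice received that dose 1 h after 300 µg/kg dmPGE2, a stable analog of prostaglandin E2. Livers were taken 6 h after APAP. A dmPGE2 vehicle and dmPGE2 alone are not among the groups, so dmPGE2 was measured only together with APAP. The labels do not say that the libraries of a group are separate animals, and the spread that a p-value is set against may therefore be technical. The tissue is whole liver, in which fewer cells of a type and less RNA per cell cannot be told apart.

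A microRNA (miRNA) is a short RNA cut from a hairpin precursor, and it represses messenger RNAs that pair with its seed, the bases near its 5′ end. The miR-126 hairpin lies in an intron of Egfl7, a gene of endothelial cells, and both arms of the hairpin are found in blood vessels. The 3p arm, the classical miR-126, is known to repress Spred1 and Pik3r2, which restrain signalling by vascular endothelial growth factor, and the 5p arm is known to repress Dlk1 in endothelial cells. In liver the sinusoids are lined by endothelium, and platelets and some blood progenitors hold miR-126 too. Acetaminophen at a high dose injures hepatocytes and also the sinusoidal endothelium.

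The sequences show why the 4 names are not 4 independent measurements: the miR-126b hairpin is the same stretch of DNA read on the opposite strand. They are from RefSeq on GRCm38.p6, which is the mm10 assembly, and 3 of the 4 members were matched there by name. Capitals in the mature sequences mark the seed, bases 2 to 8. Capitals in the miR-126a hairpin mark the stretches opposite miR-126b-3p and, as the second, miR-126a-3p itself.
miR-126a-3p, plus strand, chr2:26591402-26591423: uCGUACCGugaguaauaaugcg
miR-126b-5p, minus strand, chr2:26591399-26591420: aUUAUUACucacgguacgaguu
miR-126b-3p, minus strand, chr2:26591363-26591385: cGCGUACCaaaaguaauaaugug
miR-126a hairpin, plus strand, chr2:26591357-26591429: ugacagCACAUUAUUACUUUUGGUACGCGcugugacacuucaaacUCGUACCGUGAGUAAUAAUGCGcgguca
miR-126b hairpin, minus strand, chr2:26591363-26591420: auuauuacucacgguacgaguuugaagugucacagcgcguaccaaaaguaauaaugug

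The 58 bases of the miR-126b hairpin lie wholly within the 73 bases of the miR-126a hairpin, and both lie within Egfl7 (chromosome 2, 26581083 to 26592682). miR-126a-3p and miR-126b-5p share 19 base pairs, shifted by 3 bases at either end. The 3 printed seeds differ from each other, and each was shared with 0 other names among 1679 mature mouse miRNA names. The row of miR-126b-3p held the reads of miR-126a-5p: 53456 against 53457 over all libraries, with 7273 against 7274 in APAP replicate 1 and the same number in each other library. It was therefore counted once, as miR-126a-5p. miR-126b-5p has its own, much lower counts. The strand setting of the authors' counting is not given in the sources used here, so its reads cannot be assigned to either strand with certainty.

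Library totals ran from 1038799 reads in dmPGE2+APAP replicate 2, which stood apart as the shallowest, to 10483460 in Control replicate 3, and each Control library was deeper than each APAP or dmPGE2+APAP library. Levels are CPM (counts scaled to a common library total of 1000000) after TMM scaling, which adjusts totals for differences in composition, with factors from 0.756 to 1.19. Scaling mattered here. With plain library totals the median of all tested miRNAs shifted by 0.25 (log2) in APAP against Control, by -0.02 in dmPGE2+APAP against APAP and by 0.22 in dmPGE2+APAP against Control. All 4 members passed the filter on low counts, as did 360 rows in all.

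miR-126a-3p was among the most abundant miRNAs of the liver. Its level was 7981, 7079 and 6774 CPM in Control replicates 1 to 3, 8387, 7011 and 7906 CPM after APAP, and 7837, 9211 and 8971 CPM after dmPGE2 and APAP. The values of the 3 groups overlapped, and the lowest and the highest of the 9 were in Control and dmPGE2+APAP. Group means, in the order of Control, APAP and dmPGE2+APAP, were 7278 ± 627, 7768 ± 698 and 8673 ± 734 CPM (SD, n = 3). These levels rest on 10809 to 73538 reads a library, or 0.535% to 1.04% of the library totals given above. Those totals count shared reads more than once, those of miR-122-5p among them. With rows that share reads counted once, miR-126a-3p held 0.711% to 1.31% of the reads. On that basis it ranked between 12 and 15 of 933 rows in every library.

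The nearest neighbours of miR-126a-3p in abundance had overlapping levels. Over the 9 libraries the next rows above it were let-7g-5p, of the let-7 family, at 9317 ± 1575 CPM (SD, n = 9) and miR-27b-3p at 10359 ± 2492. The next rows below were miR-378a-3p at 7312 ± 868 and miR-30d-5p at 6911 ± 1851. miR-126a-3p itself lay at 7906 ± 855 CPM. The spreads of the 4 neighbours overlapped its own. Within libraries, miR-27b-3p held more reads than miR-126a-3p in 9 of 9 and let-7g-5p in 7 of 9, while miR-378a-3p and miR-30d-5p held fewer in 6 of 9 each. Adapter ligation weighs miRNAs unequally, so this orders rows and not molecules.

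miR-126a-5p, the other arm, lay at 1134, 899.5 and 662 CPM in Control, 1047, 979 and 1011 CPM after APAP, and 951, 963 and 1107 CPM after dmPGE2 and APAP. Control held both the highest and the lowest of these values, so it enclosed the other groups. The means were 899 ± 236, 1012 ± 34.3 and 1007 ± 87.0 CPM (SD, n = 3), from 1130 to 7732 reads a library.

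miR-126b-5p, the row antisense to miR-126a-3p, was scarce. Its level was 54.6, 41.3 and 34.1 CPM in Control, 58.4, 41.0 and 74.9 CPM after APAP, and 44.1, 128 and 62.2 CPM after dmPGE2 and APAP. The highest value was that of the shallowest library, dmPGE2+APAP replicate 2, where it rests on 150 reads. The means were 43.3 ± 10.4, 58.1 ± 17.0 and 78.0 ± 44.1 CPM (SD, n = 3), and the groups overlapped.

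**Figure D1:**
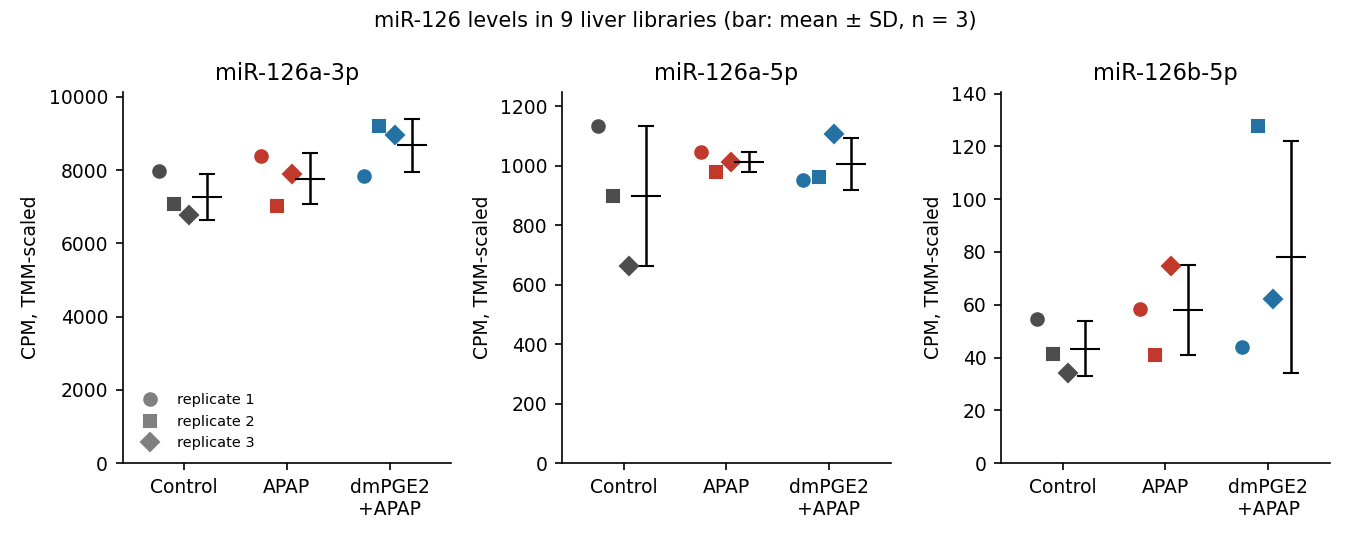
Level of miR-126a-3p, miR-126a-5p and miR-126b-5p in each of the 9 libraries, as TMM-scaled CPM on linear axes from 0. Symbols are replicates and the bar beside each group is the mean ± SD (n = 3). The groups overlap in each panel, and the miR-126b-5p value of 128 CPM is dmPGE2+APAP replicate 2.

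The first comparison asked whether acetaminophen alone changed miR-126. None of its rows passed the test: 0 of 3 distinct rows were called by edgeR's quasi-likelihood test at an adjusted p under 0.05, where 0.833% of the 360 tested rows were called (0.833% higher, 0% lower). The count was also 0 of 3 for an unadjusted p under 0.05, against 9.72% of all rows (6.39% higher). miR-126a-3p had a log2 fold change of 0.09 (SE 0.18, 95% interval -0.28 to 0.47, edgeR adjusted p = 0.891). miR-126a-5p had 0.17 (SE 0.21, -0.26 to 0.61, edgeR adjusted p = 0.791) and miR-126b-5p had 0.42 (SE 0.34, -0.30 to 1.14, edgeR adjusted p = 0.690). The value of miR-126a-5p moved with single Control libraries, to 0.42 without Control replicate 1 (edgeR adjusted p = 0.473) and 0.013 without Control replicate 3 (edgeR adjusted p = 0.992). APAP and Control overlapped in each member, while 16.7% of all tested rows separated the groups without overlap (8.61% higher, 8.06% lower).

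The second comparison asked what dmPGE2 given before acetaminophen added. Again 0 of 3 distinct rows were called by edgeR, where 0.278% of all tested rows were called (0% higher), and 0 of 3 had an unadjusted p under 0.05, against 6.39% (2.5% higher). miR-126a-3p had a log2 fold change of 0.16 (SE 0.18, -0.21 to 0.53, edgeR adjusted p = 0.913) in dmPGE2+APAP against APAP. miR-126a-5p had -0.01 (SE 0.21, -0.44 to 0.43, edgeR adjusted p = 0.994). miR-126b-5p had 0.39 (SE 0.34, -0.34 to 1.12, edgeR adjusted p = 0.896). Leaving out the shallow dmPGE2+APAP replicate 2 turned miR-126b-5p to -0.09 and miR-126a-5p to 0.06, while miR-126a-3p stayed at 0.16. The groups overlapped in each member, against 13.9% of all tested rows without overlap (5.83% higher, 8.06% lower).

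Against Control, dmPGE2+APAP livers had higher group means of all 3 distinct rows, and none of these differences passed the threshold. edgeR called 0 of these 3, where 0.278% of all tested rows were called (0.278% higher, 0% lower). miR-126a-3p had a log2 fold change of 0.25 (SE 0.18, -0.12 to 0.63, edgeR adjusted p = 0.599) and miR-126a-5p had 0.16 (SE 0.21, -0.27 to 0.60, edgeR adjusted p = 0.769). miR-126b-5p had 0.81 (SE 0.34, 0.08 to 1.54), with an edgeR unadjusted p of 0.0319 and an adjusted p of 0.348. It was the 1 member with an unadjusted p under 0.05, beside 10.6% of all tested rows (5.56% higher). Without dmPGE2+APAP replicate 2 its value was 0.36 (edgeR adjusted p = 0.842). miR-126a-5p was at 0.46 without Control replicate 1 (edgeR adjusted p = 0.377) and at 0.013 without Control replicate 3 (edgeR adjusted p = 0.996). The groups overlapped in each member, against 14.7% of all tested rows without overlap (6.11% higher, 8.61% lower). The 3 comparisons share libraries in pairs, so their values are not independent of each other. DESeq2 and limma-voom called 0 of the 3 distinct rows in each comparison.

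Library scaling moved the values of all 3 distinct rows in the comparisons with Control. With plain library totals miR-126a-3p had log2 values of 0.35 in APAP against Control, 0.14 in dmPGE2+APAP against APAP and 0.50 in dmPGE2+APAP against Control, with edgeR adjusted p of 0.467, 0.952 and 0.271. On that scale the dmPGE2+APAP libraries held 7924 to 10405 CPM of miR-126a-3p, all above the 5349 to 7166 of the Control libraries. On library totals 15% of all tested rows lay higher in that comparison without overlap. Relative to the shift of the median miRNA given above, the values are close to those under TMM.

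**Figure D2:**
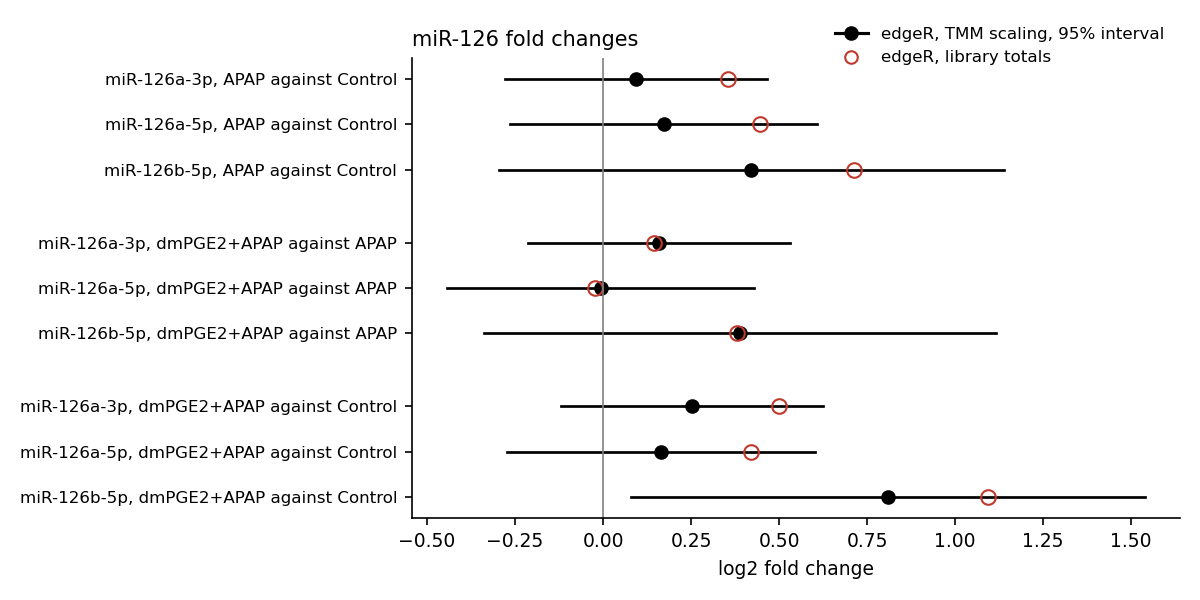
Log2 fold change of the 3 distinct miR-126 rows in the 3 comparisons. Filled points with lines are edgeR with TMM scaling and its 95% interval, and open circles are edgeR with library totals; 8 of the 9 intervals include 0, the exception being miR-126b-5p in dmPGE2+APAP against Control (0.08 to 1.54).

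The balance between the arms of the hairpin needs no library scaling. The 3p arm exceeded the 5p arm in all 9 libraries, at 7.04, 7.87 and 10.2 reads of miR-126a-3p per read of miR-126a-5p in Control, 8.01, 7.16 and 7.82 after APAP, and 8.24, 9.57 and 8.10 after dmPGE2 and APAP. The means were 8.38 ± 1.66, 7.66 ± 0.443 and 8.64 ± 0.808 (SD, n = 3). The dmPGE2+APAP values lay above the APAP values without overlap, by 0.17 on the log2 scale. How many other hairpins separate these groups in their arm ratio was not counted. In level, 13.9% of all tested rows separated them in either direction. For the ratio, the exact two-sided permutation test gave p = 0.1, the smallest that 3 against 3 libraries allow. After Benjamini-Hochberg adjustment over 8 tests it was 0.8. The other differences were -0.11 for APAP against Control and 0.06 for dmPGE2+APAP against Control, each with exact permutation p = 0.8. Over the 3 groups together the exact permutation p was 0.543.

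This ratio varied little beside that of other hairpins. Its log2 value had an SD of 0.176 over the 9 libraries, the third smallest of 86 hairpins with both arms tested, whose median SD was 0.517. Of these hairpins 37 had the 3p arm more abundant. Among the 10 hairpins with at least 100 reads of the lower arm in each library it had the smallest SD, against a median of 0.380. The level of miR-126a-3p was steady too, with an SD of log2 CPM of 0.156, rank 13 from the smallest of 348 rows (median 0.406) and rank 6 of the 32 rows at a mean of at least 1000 CPM (median 0.243). miR-126a-5p had an SD of 0.229 (rank 47) and miR-126b-5p one of 0.572 (rank 257). The 348 rows still include miR-126b-3p, so the reads of miR-126a-5p are ranked among them again. Counting error shrinks with abundance, so these ranks partly order rows by depth, and no test was made of them.

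The arms were also compared over libraries. Between log2 CPM of miR-126a-3p and miR-126a-5p Pearson's r was 0.640 (permutation p = 0.0454, adjusted 0.0597 over 10 relations) and Spearman's rho 0.617 (permutation p = 0.0857, adjusted 0.107), over 9 libraries. Without Control replicate 3 and dmPGE2+APAP replicate 2, the libraries farthest from the median of miR-126a-3p, r was 0.741 (permutation p = 0.0554) and rho 0.786 (permutation p = 0.0480). On deviations from the group means r was 0.642 (permutation p = 0.0478) and rho 0.683 (permutation p = 0.0503). Neither passed after adjustment under TMM scaling. Permutation moved deviations freely between groups, although those of a group cancel out. The p-values on deviations, here and below, therefore tend to be too small. With library totals the arms did pass, with r = 0.829 (permutation p = 0.00260, adjusted 0.00651) and rho = 0.867 (permutation p = 0.00451, adjusted 0.00902), and r was 0.751 (permutation p = 0.0274) without Control replicate 2 and dmPGE2+APAP replicate 2. On that scale rows can share a shift, as the median of all tested miRNAs did above. How many other pairs of rows pass there was not counted. miR-126a-3p and its antisense row miR-126b-5p had r = 0.845 under TMM scaling (permutation p = 0.00213, adjusted 0.00651) and 0.788 on deviations from the group means (permutation p = 0.0124, adjusted 0.0249). Without Control replicate 3 and dmPGE2+APAP replicate 2 the first of these was 0.712 (permutation p = 0.0776), with rho 0.786 (permutation p = 0.0480). Without the 2 farthest on deviations, APAP replicate 2 and dmPGE2+APAP replicate 1, the second was 0.590 (permutation p = 0.166). Under TMM scaling this relation therefore rests in part on those libraries. With library totals r was 0.897 (permutation p = 0.00130, adjusted 0.00649). It was 0.900 (permutation p = 0.00794) without Control replicate 2 and dmPGE2+APAP replicate 2. As given above, the reads of miR-126b-5p cannot be assigned to a strand with certainty. Whether these 2 rows count separate molecules was not tested.

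The antisense row ran against library depth. miR-126b-5p reads were 0.684%, 0.584% and 0.503% of miR-126a-3p reads in Control, 0.697%, 0.584% and 0.947% after APAP, and 0.563%, 1.39% and 0.693% after dmPGE2 and APAP. Within each of the 3 groups the share was higher the shallower the library. Over 9 libraries its log2 value had r = -0.961 with log2 total reads (permutation p = 0.0004, adjusted 0.004) and rho = -0.867 (permutation p = 0.00451, adjusted 0.00902). Without dmPGE2+APAP replicate 2 and APAP replicate 3 r was -0.734 (permutation p = 0.0573), so the relation rests in part on those libraries. The level of miR-126b-5p, as CPM of library totals, had r = -0.954 with depth, the most negative of 347 rows, whose median was -0.278; miR-126a-3p had -0.781 (rank 41) and miR-126a-5p -0.595 (rank 108). This pattern was noticed in the data and then measured on them. Depth differed between the groups, and its part in the miR-126b-5p differences was not tested.

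**Figure D3:**
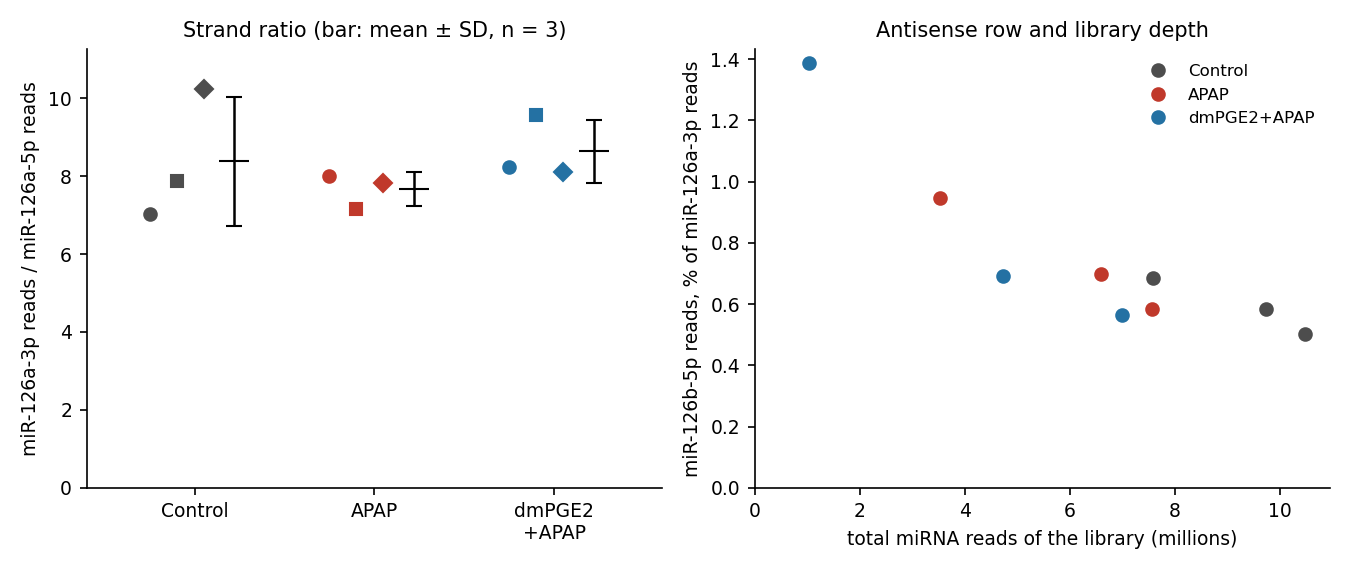
Left, reads of miR-126a-3p per read of miR-126a-5p in each library, with the mean ± SD (n = 3) beside each group; symbols are replicates 1 (circle), 2 (square) and 3 (diamond). Right, miR-126b-5p reads as a percentage of miR-126a-3p reads against the total miRNA reads of the library; the shallowest library has the highest share, 1.39%, and the deepest the lowest, 0.503%.

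Set against hepatocyte miRNAs, miR-126a-3p had its lowest group mean in Control. No pairwise exact permutation test of 3 against 3 libraries can go below p = 0.1. miR-122-5p is the main miRNA of hepatocytes, and miR-126a-3p held 4.44%, 2.19% and 3.83% of its reads in Control, 4.54%, 3.59% and 5.01% after APAP, and 3.69%, 5.17% and 4.88% after dmPGE2 and APAP. The groups overlapped, with means of 3.48% ± 1.17, 4.38% ± 0.726 and 4.58% ± 0.785 (SD, n = 3). The log2 differences were 0.38 for APAP against Control (exact permutation p = 0.4), 0.06 for dmPGE2+APAP against APAP (exact permutation p = 0.6) and 0.44 for dmPGE2+APAP against Control (exact permutation p = 0.3), and each had an adjusted p of 0.8. Over the 3 groups together the exact permutation p was 0.339. The low Control value was that of Control replicate 2, where miR-122-5p reached 323931 CPM against 176792 and 179856 in the other Control libraries. Without it the differences from Control were 0.07 for APAP and 0.14 for dmPGE2+APAP.

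Against the summed reads of 6 hepatocyte miRNAs (miR-122-5p, miR-122-3p, miR-802-5p, miR-192-5p, miR-194-5p and miR-148a-3p), miR-126a-3p stood at 1.76%, 1.35% and 1.80% in Control, 2.39%, 1.81% and 2.40% after APAP, and 2.05%, 2.61% and 2.28% after dmPGE2 and APAP. Every library of both APAP groups lay above every Control library, by a narrow margin at the nearest values of 1.81% and 1.80%. The means were 1.64% ± 0.252, 2.20% ± 0.343 and 2.31% ± 0.279 (SD, n = 3). This share was not tested, and how many other miRNAs separate the groups on the same basis was not counted. The separation is therefore not shown to be particular to miR-126. The summed level of the 6 ran from 375765 to 525127 CPM in Control, from 328761 to 388432 after APAP and from 353290 to 392894 after dmPGE2 and APAP. edgeR called 0 of the 6 in APAP against Control, with 1 of 6 values above 0 and a median log2 value of -0.27, against -0.05 over all tested rows. Whether the ratio reflects the endothelial or the hepatocyte RNA cannot be told apart in whole liver.

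**Figure D4:**
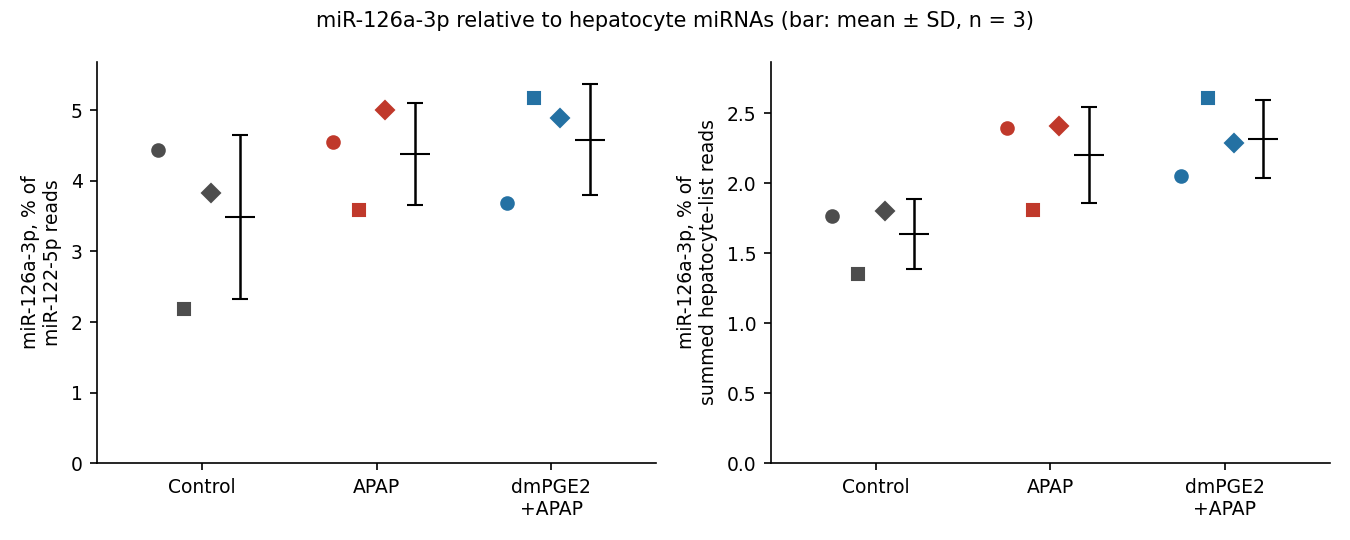
Reads of miR-126a-3p as a percentage of miR-122-5p reads (left) and of the summed reads of 6 hepatocyte miRNAs (right) in each library, with the mean ± SD (n = 3) beside each group; circles, squares and diamonds are replicates 1, 2 and 3. The lowest value in both panels is Control replicate 2, at 2.19% and 1.35%.

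Markers of other liver cell types were measured in the same libraries. miR-451a, of red blood cells, had log2 values of 0.97 in APAP against Control (edgeR adjusted p = 0.0571) and -1.44 in dmPGE2+APAP against APAP (edgeR adjusted p = 0.00993). It was the row called in that comparison, and without APAP replicate 1 or dmPGE2+APAP replicate 2 edgeR called 0 of the 4 erythroid miRNAs. Over the 4 erythroid miRNAs the summed level ran from 431 to 543 CPM in Control, from 731 to 1398 after APAP and from 352 to 379 after dmPGE2 and APAP, so reads of miR-126a-3p per erythroid read were 15.2 ± 1.97, 8.75 ± 2.48 and 23.9 ± 1.69 (SD, n = 3). miR-223-3p, of neutrophils and other myeloid cells, had 1.03 (edgeR adjusted p = 0.125) and -0.93 (edgeR adjusted p = 0.326) in the same comparisons. miR-143-3p, of stellate and smooth muscle cells, had -0.21 (edgeR adjusted p = 0.791) and 0.20 (edgeR adjusted p = 0.913). miR-192-5p, of hepatocytes, had -0.27 (edgeR adjusted p = 0.637) and 0.24 (edgeR adjusted p = 0.896). In APAP against Control 4 of 4 erythroid and 4 of 4 myeloid miRNAs were above 0. In dmPGE2+APAP against APAP 0 of 4 and 0 of 4 were. The stellate and hepatocyte lists were mixed in direction. Of 6 stellate and mesenchymal miRNAs 2 were above 0 in APAP against Control and 5 in dmPGE2+APAP against APAP. Of the 6 hepatocyte miRNAs 1 and 4 were. The part of these cell types in the levels of miR-126 was not tested.

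Of the other miRNAs tied to endothelium, miR-503-5p passed the test, in APAP against Control. Of 23 listed miRNAs, among them the miR-23/24/27 clusters, the miR-17/92 cluster, miR-10, miR-181 and miR-221/222, 22 were tested. Many of them are expressed in other liver cells too. The list was chosen with earlier results of these data known, so its counts are given as a description. In APAP against Control 14 of 22 had log2 values above 0 and the median was 0.09, against 44.7% and -0.05 over all tested rows. edgeR called 1 of the 22 higher and 0 lower, beside 0.833% of all tested rows. In dmPGE2+APAP against APAP 10 of 22 were above 0, 0 were called and the median was -0.11, against 50% and 0.00 over all tested rows. In dmPGE2+APAP against Control 11 of 22 were above 0, 0 were called and the median was 0.05, against 46.1% and -0.03. Their summed level ran from 16331 to 19247 CPM in Control, from 18129 to 20212 after APAP and from 18172 to 25283 after dmPGE2 and APAP. miR-126a-3p relative to that sum had log2 differences of 0.02, -0.01 and 0.01 in the 3 comparisons.

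The called member was miR-503-5p, of the miR-322/503 cluster, which rose from 1.68 ± 0.269 CPM in Control to 6.54 ± 1.61 in APAP (SD, n = 3), 1.94 on the log2 scale (SE 0.36, edgeR adjusted p = 0.0224). In dmPGE2+APAP it lay at 5.80 ± 1.37 CPM, 1.73 above Control on the log2 scale (SE 0.38, edgeR adjusted p = 0.0595). That difference passed in 5 of 18 alternatives: RLE scaling (edgeR adjusted p = 0.0422), library totals (0.0368), DESeq2 (0.00962), and without APAP replicate 3 (0.0382) or dmPGE2+APAP replicate 1 (0.0380). miR-503-5p was not tested with rows of 10 CPM or more, or after thinning to the shallowest total. The call in APAP was lost without any one of Control replicates 1 to 3, APAP replicate 1 or APAP replicate 3, with edgeR adjusted p from 0.0518 to 0.124. The abundant members did not pass. miR-27b-3p, at 8779 ± 1177, 10040.5 ± 1260 and 12259 ± 3543 CPM, had 0.29 in dmPGE2+APAP against APAP (edgeR adjusted p = 0.896) and 0.48 against Control (edgeR adjusted p = 0.429). miR-10a-5p lay at 4592 ± 1598, 3263 ± 780 and 3253 ± 629 CPM, and miR-100-5p at 1364 ± 628, 1454 ± 35.1 and 1655 ± 48.1 CPM. The member of lowest unadjusted p in dmPGE2+APAP against APAP was miR-18a-5p, of the miR-17/92 cluster, with 2.30 ± 0.655 CPM after APAP alone and 0.786 ± 0.682 with dmPGE2. Its log2 value was -1.16 (SE 0.56, edgeR adjusted p = 0.703). It rests on means of 14.3 reads in APAP and 4.67 in dmPGE2+APAP, where the lowest value was 0 CPM.

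**Figure D5:**
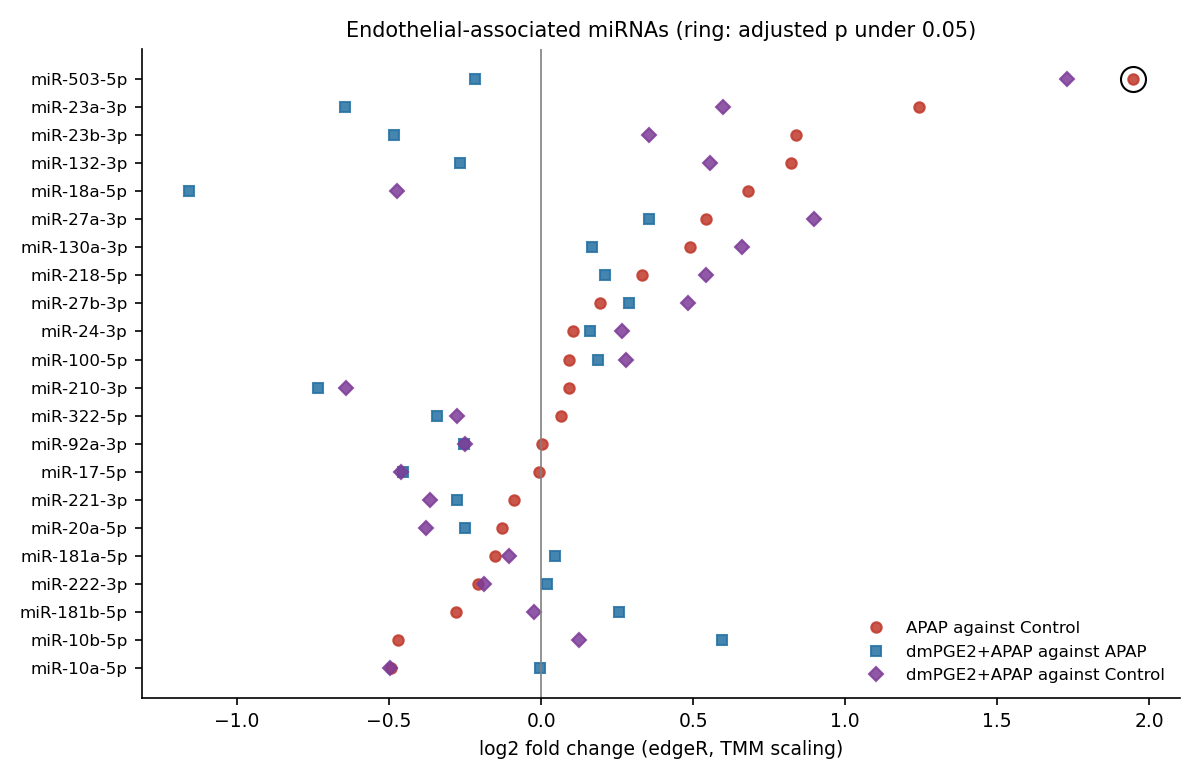
Log2 fold change (edgeR, TMM scaling) of the 22 tested endothelial-associated miRNAs in the 3 comparisons, ordered by APAP against Control. The ring marks the 1 value with an adjusted p under 0.05, miR-503-5p in APAP against Control at 1.94.

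Some miRNAs had a pattern over libraries much like that of miR-126a-3p. Among 193 other rows at a mean of at least 10 CPM, leaving out the members and 1 row of each pair that shares reads, Pearson's r of log2 CPM over the 9 libraries was highest for miR-24-2-5p (0.899, rho 0.9), miR-27a-3p (0.861, rho 0.9), miR-29c-3p (0.786, rho 0.783), miR-27b-3p (0.779, rho 0.717) and miR-872-5p (0.767, rho 0.817). miR-24-2-5p and miR-27a-3p come from hairpins of 1 cluster, and miR-27b-3p from its paralogous cluster. For miR-126a-5p the highest were miR-215-5p (0.913, rho 0.617), let-7a-1-3p (0.811, rho 0.1), miR-32-5p (0.807, rho 0.733), miR-378a-3p (0.786, rho 0.0667) and miR-29c-3p (0.784, rho 0.517). Only miR-29c-3p was among the 5 of both arms. Several of the rho values for the 5p arm were far below r, and of each 5 names 2 to 4 (3p) and 1 to 3 (5p) stayed in the list with Spearman's rho, with deviations from group means or with library totals. These are the highest of many values over 9 shared libraries, given as a description.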

How the data were processed

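Small RNA of liver was measured in 9 libraries as reads per mature miRNA, in 1 deposited table. The authors' values are read counts, whole numbers per the file headers, and TPM, which, from the values, equal each deposited count over the library total times 1000000, with no length term. TPM served 1 alternative, in dmPGE2+APAP against APAP. Per the submitters' processing notes, Bowtie and mm10 were used for mapping. What counted the reads, on which annotation and strand, is not given in the sources used here. For the Control group the count columns carry a prefix that is not in the labels. They were assigned by elimination, the other columns matching the APAP and dmPGE2+APAP labels, and their replicate numbers are those of the column names. The 3 TPM columns with that prefix were not used.

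Differences were tested on the counts of all rows with edgeR 4.0.16 under R 4.3.3 (TMM, filterByExpr with a minimum count of 10 and total of 15, robust quasi-likelihood test, 1 fit of 3 group means over 9 libraries, Benjamini-Hochberg over 360 rows, threshold 0.05). DESeq2 1.42.0 and limma 3.58.1 served as alternatives. Ratios and correlations were taken in Python 3.11.15 with SciPy 1.17.1, exactly or by permutation. Rows within 5% or 2 reads of each other in each library, with at least 100 reads in all, were taken to share reads (13 pairs). PCR copies are not independent molecules. The scripts were tested on simulated data. The members and lists were chosen with earlier results of these data known. Named are the members; of the endothelial-associated list the called members, or otherwise the 3 most abundant and the 1 of lowest p per comparison; 5 markers of other cell types; the 5 rows most like each arm; and the 2 rows above and below miR-126a-3p in mean CPM.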

Additional observations from a re-analysis of the deposited data

How the results depend on the processing

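Of 183 alternative values of the member fold changes, 171 kept their direction and side of the threshold, 0 passed it (lowest adjusted p 0.167) and 12 turned direction. In dmPGE2+APAP against APAP, miR-126a-5p was 0.0060 with RLE scaling, 0.030 with upper-quartile scaling, 0.0062 with DESeq2 and 0.00809 with rows of 10 CPM or more, and -0.067 to 0.064 with 1 library left out; miR-126b-5p was -0.087 to 0.69 with 1 library left out. Strand-ratio differences turned only with 1 library left out, to -0.23 to 0.041 in APAP against Control and -0.059 to 0.21 in dmPGE2+APAP against Control. miR-126a-3p relative to miR-122-5p in dmPGE2+APAP against APAP was -0.065 with miR-192-5p as reference and -0.073 to 0.21 with 1 library left out. The r between the arms was 0.455 to 0.765 with 1 library left out, an alternative chosen after seeing the data, and its p was no longer under 0.05 in 6 of 9 cases; with library totals r was 0.829. The count called in APAP against Control, 3, became 7 with RLE or upper-quartile scaling or only the 2 groups, 8 with library totals, 13 with DESeq2, 9 with no filter, 0 at 10 CPM or thinned to the shallowest total, and 0 to 9 with 1 library left out. In dmPGE2+APAP against APAP, 1 became 8 with DESeq2, 9 with no filter, 0 with only the 2 groups or with limma on TPM, and 0 to 5 with 1 library left out. In dmPGE2+APAP against Control, 1 became 2 with RLE scaling, library totals, DESeq2 or no filter, 0 at 10 CPM or thinned, and 1 to 2 with 1 library left out. Of the endothelial-associated list, DESeq2 called 2 in APAP against Control (0 to 2 with 1 library left out) and, in dmPGE2+APAP against Control, 1 with library totals or DESeq2 (0 to 1 with 1 library left out); its counts were taken in these settings only, and miR-503-5p also passed there with RLE scaling. miR-503-5p in dmPGE2+APAP against APAP, -0.22, was -0.33 to 0.029 with 1 library left out. limma on TPM was not run against Control, whose TPM columns were not used. Deviations of same-numbered libraries had r of -0.248 to 0.172 (median -0.102), against -0.281 to 0.152 (median 0.045) for other pairs between groups. With 3 libraries a group this cannot exclude that the numbers pair them. With the replicate block miR-126a-3p had 0.09, 0.16 and 0.26, and the counts called were 0, 2 and 1. In that fit miR-503-5p in APAP against Control had an edgeR adjusted p of 0.0540. miR-126b-5p rests on 150 to 406 reads a library, so it carries the widest counting error of the members.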
